A study of Mus musculus with 31 samples.

Results

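The genes described here are 10 markers of liver zonation, the division of labour between hepatocytes near the portal triad and those near the central vein. They were chosen by name: 6 pericentral genes (Glul, Oat, Rhbg, Axin2, Tbx3 and Slc1a2) and 4 periportal or glucagon-driven genes (Gls2, Hal, Sds and Hsd17b13). Gene identifiers were paired with symbols through GENCODE vM21, which matched 9 of the 10 markers among 35275 gene identifiers in the insulin experiment and 10 of 10 among 54532 in the ERRα3SA experiment. Rhbg had no entry under its identifier in the first table and was not analysed there.

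The study asked how the nuclear receptor ERRα, encoded by Esrra, takes part in the response of the liver to insulin, and measured RNA by sequencing in 31 mouse libraries, of which the 23 from liver are used here. All mice were male, on a C57BL/6N background and, per the study's methods, 2 to 3 months old unless stated otherwise. In the insulin experiment, WT mice and mice lacking ERRα in the whole body (ERRα-/-) were fasted for 12 h overnight, injected intraperitoneally with saline or with 1 unit/kg insulin and killed 4 h later, at zeitgeber time (ZT) 6. This gave 4 WT saline, 4 WT insulin, 4 ERRα-/- saline and 3 ERRα-/- insulin livers (replicates 1, 2 and 4). In the second experiment, 4 livers came from ERRα3SA mice, in which 3 serines of ERRα were changed to alanine by CRISPR editing of the germline, and 4 from their WT littermates. Those mice received a normal diet and were killed between ZT2 and ZT6, with no injection named in the sources used here. The ERRα-/- allele acts in every tissue and from conception, so a value in these livers is not a measure of hepatocyte ERRα alone. Total counts ran from 35871419 to 48317108 per liver in the insulin experiment and from 20481405 to 33412022 in the ERRα3SA experiment. Levels are given in CPM, counts relative to the library's total after TMM scaling. Scaling was done within each experiment, so that a level in one is not compared with a level in the other.

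Blood enters the liver lobule at the portal triad and leaves at the central vein, and hepatocytes along that path carry out different tasks. Periportal hepatocytes see the most oxygen and the most glucagon and are known for urea synthesis, gluconeogenesis and the breakdown of amino acids, whereas the last hepatocytes before the central vein trap the ammonia that escapes as glutamine. Wnt ligands and R-spondins released by the endothelium of the central vein keep the pericentral program on through β-catenin, and glucagon is known to oppose it.

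The targeted gene was examined first. Esrra stood at 32.3, 51.3, 42.7 and 40.5 CPM in the WT saline livers (replicates 1 to 4) and at 53.7, 96.5, 56.1 and 59.0 CPM in the WT insulin livers. It was at 1.63, 0.703, 1.153 and 1.04 CPM in the ERRα-/- saline livers and at 0.833, 0.576 and 0.298 CPM in the ERRα-/- insulin livers, so every library carried the genotype on its label. Set against WT livers given the same injection, the knockout had an Esrra log2 fold change of -5.20 after saline (adjusted p = 2.58e-06) and -6.86 after insulin (adjusted p = 3.55e-05), and in WT livers it was 1.59-fold higher with insulin than with saline (unadjusted p = 0.00754, adjusted p = 0.122), with no overlap. The study itself reports that liver Esrra mRNA was unaltered 4 h after insulin. In the other experiment Esrra was at 26.2, 25.7, 26.8 and 28.01 CPM in WT and at 27.96, 24.1, 20.02 and 18.4 CPM in ERRα3SA livers, where a change of 3 codons leaves the count of the gene's reads uninformative about the label.

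The tissue on the label was checked against cell type markers. Of 6 hepatocyte markers 5 were matched and all 5 were detected in every liver, with summed levels of 82440.2, 76319, 73779 and 83430.3 CPM in WT saline, 75151, 81574, 74075 and 82110.5 in WT insulin, 91341, 69819.7, 95233 and 72769 in ERRα-/- saline and 92526, 91575 and 87494 in ERRα-/- insulin livers. Albumin (Alb) was the most abundant of them. The sums were 87643, 78472, 93405 and 77225 CPM in the WT and 91364, 78816, 89926 and 49603 CPM in the ERRα3SA livers, with replicate 4 of the latter the lowest of these 8. All 7 endothelial markers were present, and their sum lay between 145 and 254 CPM in the insulin experiment (most abundant, Stab2) and between 174 and 217 CPM in the ERRα3SA experiment (Kdr). The 5 Kupffer cell markers summed to 108 to 245 and 202 to 297 CPM (Clec4f in both), and the 6 stellate cell and fibroblast markers to 155 to 214 and 226 to 255 CPM (Dcn in both). These lists were at less than 1% of the hepatocyte sum in every liver.

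The 5 cholangiocyte markers summed to 20.7 to 42.3 and 30.1 to 57.2 CPM (Spp1), the 6 lymphocyte and neutrophil markers to 3.99 to 12.1 and 10.8 to 16.5 CPM (Ptprc), and the 5 erythroid markers to 150.1 to 449 CPM (Hbb-bs) and 251 to 405 CPM (Alas2). Markers of pancreas and muscle were uneven. The 7 pancreas and muscle markers summed to 307, 18.5, 4.96 and 409.8 CPM in the WT saline livers, 12.4, 45.8, 62.4 and 62.8 in WT insulin, 80.2, 16.0, 4.13 and 43.2 in ERRα-/- saline and 9.84, 6.26 and 6.05 in ERRα-/- insulin livers. Cela1, which encodes an elastase, was the most abundant by the median over the livers, Prss2, a pancreatic trypsinogen, stood at 79.1, 5.58, 0.0229 and 151 CPM in the WT saline livers, and Amy2a5 and Ins2 were at 0 in all 15. The muscle genes Acta1 and Myh4 reached 30.4 and 19.3 CPM in WT insulin replicate 3 and at most 2.498 and 1.09 CPM in any other liver of that experiment. In the ERRα3SA experiment the sums were 83.2, 37.3, 54.6 and 46.9 CPM in WT and 216, 33.6, 30.2 and 41.2 CPM in ERRα3SA livers. Cela1 alone of the 7 was detected in WT replicate 3 and ERRα3SA replicates 2 and 4 of that experiment. The same was true of ERRα-/- saline replicate 3 of the insulin experiment. The sums of those livers rest on Cela1 only and are not by themselves a measure of neighbouring tissue. The part of these tissues in the results below was not tested.

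Some libraries stood apart from their groups in the markers themselves. ERRα-/- saline replicate 3 held 639.5 CPM of Glul where replicates 1, 2 and 4 held 1340.1, 1356 and 1419, together with the highest Gls2, Hal, Sds and Hsd17b13 of its group, and it was the deepest library. ERRα-/- saline replicate 4 held the lowest Gls2, Hal and Sds of all 15 livers. WT insulin replicate 3 had the highest Axin2 and Tbx3 of all 15 livers, as well as the muscle traces above. ERRα3SA replicate 4 had the lowest Oat, Gls2, Hal, Sds and Hsd17b13 of the 8 livers and 38111 CPM of Alb against 64409 to 75899 in the other ERRα3SA livers. Over 9171 genes with a mean of at least 5 CPM, 3.94% lay more than 1 log2 unit from the median of the group's other livers in that library, and at most 1.25% in the other 7. By the same measure the WT insulin livers 1 and 2 stood out among the 15, with 4.33% and 5.28% of 8686 genes, against 2.26% in ERRα-/- saline replicate 3. Counts of markers and lists that change by over 1.5 times without one of these libraries are also given without it.

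The pericentral markers are described first. Glul (ENSMUSG00000026473) encodes glutamine synthetase, the enzyme with which the hepatocytes around the central vein fix ammonia, and lies on the plus strand of GRCm38 at chr1:153899944-153909723. Oat (ENSMUSG00000030934, chr7:132557478-132576398, minus strand) encodes ornithine aminotransferase, which feeds ornithine carbon into glutamate. Slc1a2 (ENSMUSG00000005089, chr2:102658659-102790784, plus strand) encodes a glutamate transporter of the plasma membrane, and Rhbg (ENSMUSG00000104445, chr3:88242874-88254709, minus strand) an ammonium transporter. Axin2 (ENSMUSG00000000142, chr11:108920349-108950783, plus strand) is both a target and an inhibitor of β-catenin signaling, and Tbx3 (ENSMUSG00000018604, chr5:119670669-119684724, plus strand) encodes a T-box transcription factor.

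The 4 periportal or glucagon-driven markers act mostly on amino acids. Gls2 (ENSMUSG00000044005, chr10:128194457-128210004, plus strand) encodes the liver glutaminase, which releases ammonia from glutamine in the cells that make urea. Hal (ENSMUSG00000020017, chr10:93488768-93519304, plus strand) encodes histidine ammonia lyase and Sds (ENSMUSG00000029597, chr5:120476526-120483932, plus strand) serine dehydratase, which turns serine into pyruvate. Hsd17b13 (ENSMUSG00000034528, chr5:103955440-103977410, minus strand) encodes a hydroxysteroid dehydrogenase that sits on lipid droplets. All 10 are annotated as protein-coding. Rhbg shares 1190 of its 1937 exon bases with Gm38392 on the same strand, where strand does not tell the genes apart, and Gm38392 was at 0 in all 8 livers of the ERRα3SA experiment. Glul shares 93 exon bases with Mir8114, also on the same strand. On the opposite strand, Sds shares 360 exon bases with Plbd2 and 141 with Gm15690, Axin2 shares 209 with Gm11670, Slc1a2 189 with Gm13872, Glul 116 with Teddm2, Tbx3 115 with Tbx3os1 and Gls2 97 with Spryd4. Reads in those stretches cannot be assigned to one gene where counting did not use strand, which the sources used here do not state. The highest level of these opposite-strand genes in any liver was 119 CPM for Plbd2, 31.1 for Spryd4 and 5.61 for Gm15690, and the other 4 stayed under 4 CPM.

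Per kilobase of exon, the mean level in the 15 livers of the insulin experiment was highest for Oat at 709.8 CPM per kb. It was 340.2 for Glul, 149 for Hsd17b13, 98.4 for Hal, 87.7 for Gls2 and 58.2 for Sds. Slc1a2 at 19.4, Tbx3 at 4.15 and Axin2 at 1.76 CPM per kb were the lowest. The enzymes thus stood far above the regulators Tbx3 and Axin2. In the ERRα3SA experiment the same scale gave 440.1 for Oat, 326 for Glul and 1.18 CPM per kb for Rhbg, which was counted 40 to 79 times per liver. Rhbg had the lowest mean of the 10, on all its exon bases including the shared ones, with a range over livers that overlapped that of Axin2. Ranges over livers of the insulin experiment overlapped between Hsd17b13 and Hal, Hal and Gls2, Gls2 and Sds, Sds and Slc1a2, and Tbx3 and Axin2, so that the order of these neighbours is within their spread. Those of Glul and Hsd17b13 met only through ERRα-/- saline replicate 3.

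**Figure D1:**
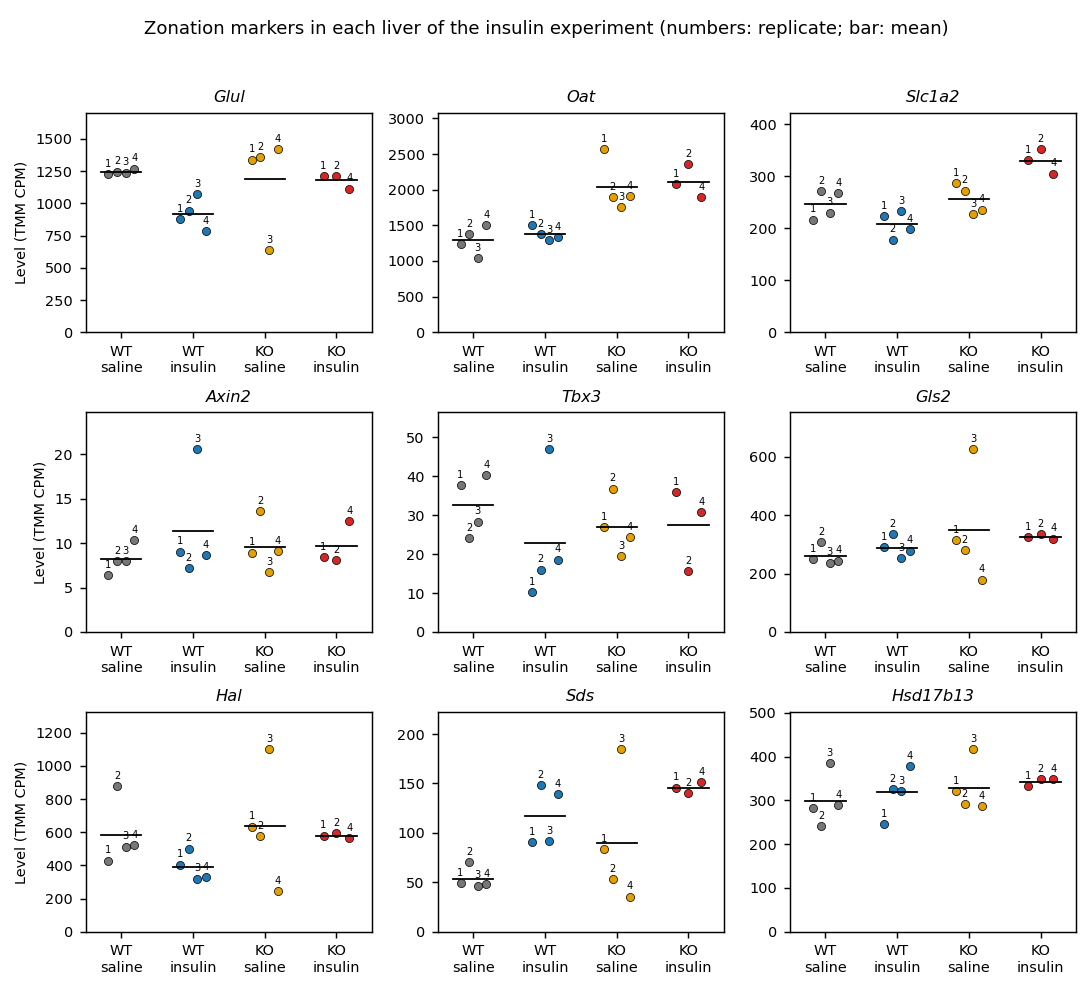
Level of each marker (TMM CPM, linear axis from 0) in the 15 livers of the insulin experiment by group, with points for livers, numbers for replicates and bars for group means. Glul is lower in all 4 WT insulin livers than in the 4 WT saline livers, Oat is higher in the 7 ERRα-/- livers than in the 8 WT livers, and ERRα-/- saline replicate 3 stands apart in the panels of Glul, Gls2, Hal and Sds.

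Promoter sequences from RefSeq (GRCm38.p6) are shown for 1 periportal and 1 pericentral marker that were both higher in ERRα-/- than in WT livers after insulin, so that the letters upstream of their starts can be read beside the values. The reference table held 6 of the 10 markers (Glul, Slc1a2, Hsd17b13, Oat, Hal and Axin2) and none for Rhbg, Tbx3, Gls2 and Sds. The 250 bases upstream of the start, 5′ to 3′ on the gene's strand, lie at chr10:93488518-93488767 (plus strand) for Hal and at chr7:132576399-132576648 (minus strand) for Oat, and neither window overlaps an annotated exon. Capitals mark the letters TCAAAG, the core bound by the TCF/LEF partners of β-catenin, or their reverse complement.

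Hal: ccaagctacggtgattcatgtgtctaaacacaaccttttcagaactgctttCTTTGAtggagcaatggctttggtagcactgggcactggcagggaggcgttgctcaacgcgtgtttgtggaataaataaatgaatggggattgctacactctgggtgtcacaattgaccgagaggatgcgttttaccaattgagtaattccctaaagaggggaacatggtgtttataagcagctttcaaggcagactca
Oat: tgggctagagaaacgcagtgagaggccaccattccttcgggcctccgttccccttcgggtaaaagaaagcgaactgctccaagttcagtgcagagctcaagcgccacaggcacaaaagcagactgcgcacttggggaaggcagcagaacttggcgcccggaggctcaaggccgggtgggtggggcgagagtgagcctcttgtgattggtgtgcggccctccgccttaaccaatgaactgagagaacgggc

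The window of Hal holds TCAAAG 1 time, on the opposite strand, and that of Oat does not hold it. The letters were also found 2 times each in the windows of Hsd17b13 and Slc1a2, each of which overlaps 1 annotated exon, and not in those of Glul and Axin2. The RefSeq start of Slc1a2 lies inside the gene's GENCODE span, and so do the bases next to the start of Hsd17b13, with 1 of its 2 matches. Over all 32851 promoters of the table, 13.8% hold TCAAAG on either strand in the same 250 bases. AAGGTCA, the half-site read by ERRα and related receptors, is in 4.08% of all promoters, the forkhead letters GTAAACA are in 3.17% and the CREB letters TGACGTCA in 1.55%, and none of these 3 was in the window of any of the 6 markers. The last 3 letters of AAGGTCA are the first 3 of TCAAAG, so that these 2 can overlap. A match describes the letters only.

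Differences between groups were fitted over all genes with edgeR's quasi-likelihood test. A gene is said to rise or fall where its unadjusted p was under 0.05 and its fold change at least 1.2, the criterion of the study's methods, and the Benjamini-Hochberg adjusted p over all genes tested is printed beside it. Since the markers were chosen with results of these data known, their counts are set beside the share of all genes that met the same rule and are not tested as a set. The comparisons within the insulin experiment share groups of livers with each other, so each is given by its own values and no overlap between them was computed.

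**Figure D2:**
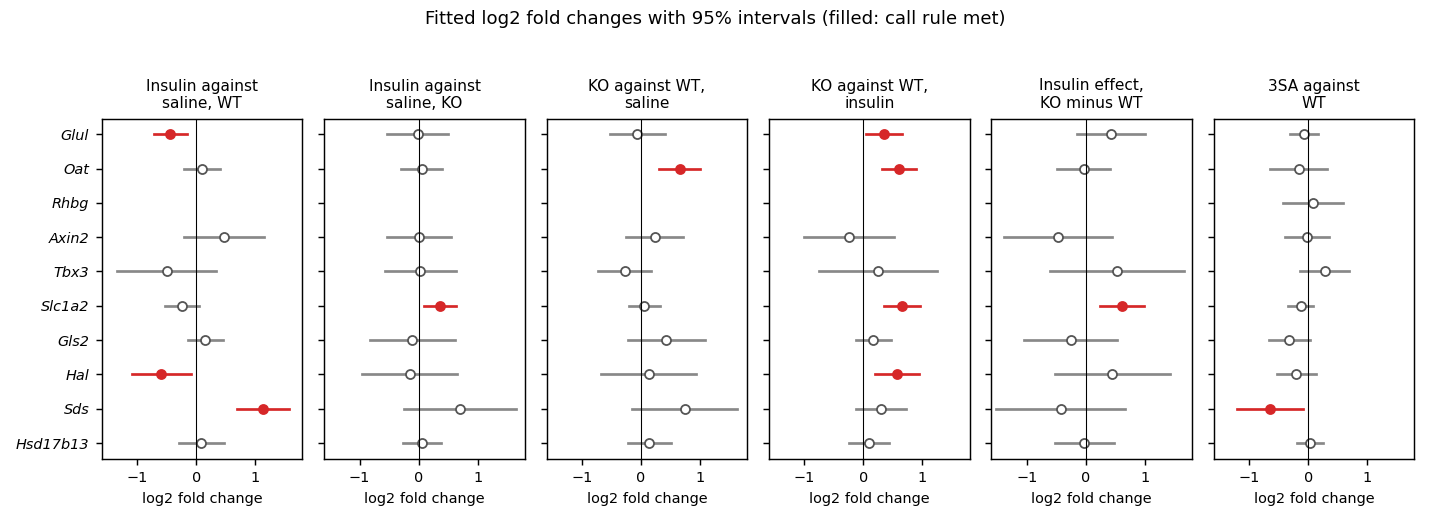
Fitted log2 fold change of each marker with its 95% confidence interval in the 6 comparisons (KO, ERRα-/-; 3SA, ERRα3SA), filled where the unadjusted p was under 0.05 and the fold at least 1.2. Slc1a2 is the one marker filled in the panel of the difference between genotypes in the effect of insulin, and Rhbg was analysed in the ERRα3SA experiment only.

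The first comparison asked what insulin did to fasted WT liver. Of the 9 markers, Sds rose and Glul and Hal fell, whereas the other 6 did not meet the rule. That is 3 of 9 in either direction against 17.2% of all 13463 genes, 1 higher against 8.34%, 2 lower against 8.91% and, at an adjusted p under 0.05, 1 (Sds) against 3.16%. By DESeq2 Glul also had an adjusted p under 0.05 (0.018). The median log2 fold change was -0.24 over the 5 pericentral and 0.12 over the 4 periportal markers, against 0.00 over all genes.

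Glul was at 1227, 1246, 1239 and 1269 CPM in the WT saline livers and at 879, 944, 1073 and 783 CPM in the WT insulin livers. The saline livers lay close together, and all 4 insulin livers were below all of them. Glul fell by 0.44 on the log2 scale with insulin (95% interval -0.72 to -0.16; unadjusted p = 0.00554, adjusted p = 0.101). In RNA from whole liver, fewer pericentral cells and less RNA per cell cannot be told apart. Slc1a2 was at 217, 271, 230.4 and 267 CPM with saline and 223, 178, 233 and 198 CPM with insulin, which overlapped, and its log2 difference was -0.24 ± 0.13 (SE) with adjusted p = 0.365. Oat differed by 0.09 ± 0.14 (SE) with adjusted p = 0.784.

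The regulators Tbx3 and Axin2 were dominated by 1 liver. Tbx3 was at 37.6, 24.1, 28.3 and 40.2 CPM with saline and 10.3, 16.0, 47.0 and 18.6 CPM with insulin. Replicate 3 was the highest of all 8 livers and the other 3 insulin livers were the lowest. The log2 difference was -0.50 ± 0.38 (SE) with all livers (unadjusted p = 0.217, adjusted p = 0.541) and -1.12 (unadjusted p = 0.000835) without that liver, when it met the rule. Axin2 was at 6.42, 7.94, 7.95 and 10.3 CPM with saline and 9.03, 7.21, 20.6 and 8.61 CPM with insulin, where replicate 3 again lay far above the rest. Its log2 difference was 0.48 ± 0.31 (SE) with adjusted p = 0.459, and 0.02 (unadjusted p = 0.911) without that liver.

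Among the periportal markers, Sds was at 49.1, 70.7, 46.6 and 47.8 CPM with saline and 90.3, 148, 91.5 and 139 CPM with insulin. Every insulin liver was above every saline liver, although saline replicate 2 stood above its own group. Sds rose 2.19-fold, a log2 fold change of 1.13 ± 0.20 (SE) with unadjusted p = 0.000155, adjusted p = 0.0152, and in each of the 8 fits with 1 liver left out it met the rule. Plbd2, which shares exon bases with it, had a log2 difference of -0.07 in the same fit (adjusted p = 0.852). Hal went the other way, with 428, 876, 514 and 521 CPM in the saline and 404, 501, 319 and 329 CPM in the insulin livers. The groups overlapped through insulin replicate 2, and saline replicate 2 was far above the other saline livers. Hal fell by 0.59 on the log2 scale (unadjusted p = 0.0247, adjusted p = 0.21). This call was lost without WT saline replicate 2, where the difference was -0.33 (unadjusted p = 0.0942), and also without WT insulin replicate 3 (-0.51, unadjusted p = 0.0665) or 4 (-0.52, unadjusted p = 0.0659), and with the 4 groups in 1 fit (-0.59, unadjusted p = 0.0792). Gls2 at 238 to 307 CPM with saline and 252 to 335 CPM with insulin, and Hsd17b13 at 241 to 386 and 246 to 379 CPM, had log2 differences of 0.15 ± 0.13 (SE) and 0.09 ± 0.17 (SE) and did not meet the rule.

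The other genes of the pathway were taken from lists by role. Of the 8 Wnt ligands, R-spondins and secretion factors, Wnt2 was at 2.98, 3.60, 3.31 and 4.51 CPM with saline and 5.42, 3.77, 3.802 and 6.24 with insulin, and 1 rose and 0 fell of 8 tested. The gene that rose was Porcn, which encodes the enzyme that acylates Wnt proteins, at 1.27 ± 0.429 CPM (SD, n = 4) and 3.34 ± 1.33 CPM (SD, n = 4). Of 14 Wnt targets and regulators of the pericentral zone, 6 fell and 0 rose (median log2 fold change -0.41 against 0.00 over all genes tested), and 3 of them had an adjusted p under 0.05. Lgr5, a receptor for R-spondins, was at 10.05, 5.64, 8.14 and 6.54 CPM with saline and 0.691, 3.01, 2.49 and 1.76 CPM with insulin. No insulin liver reached the lowest saline liver, and the gene fell by 1.93 on the log2 scale (adjusted p = 0.0226). Notum, which encodes a secreted inactivator of Wnt proteins, fell by 0.76 from 13.2 ± 2.06 CPM (SD, n = 4) to 7.78 ± 0.616 CPM (SD, n = 4) (adjusted p = 0.0277). Tnfrsf19, a receptor of the TNF family, fell by 1.35 (adjusted p = 0.0321), and Tcf7l2, a TCF partner of β-catenin, by 0.88 (adjusted p = 0.124). Without WT insulin replicate 3, 8 of 14 fell and 0 rose.

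Of 20 other pericentral genes, 1 rose and 3 fell (median -0.22 against 0.00 over all genes tested). Slc22a3, an organic cation transporter, was at 8.03, 11.8, 6.74 and 7.91 CPM with saline and 40.1, 18.1, 21.8 and 17.7 CPM with insulin and rose by 1.50 on the log2 scale (adjusted p = 0.0166). Ahr, which encodes the aryl hydrocarbon receptor, fell by 0.66 (adjusted p = 0.0597), Cyp2a5 by 0.61 (adjusted p = 0.204) and Nr1i3, the xenobiotic receptor CAR, by 0.47 (adjusted p = 0.215). The P450 gene Cyp2e1, at 7830.1, 8426, 6953 and 8343 CPM and 6471, 8517, 6362 and 7160.1 CPM, did not meet the rule.

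Of 22 other periportal genes, 5 rose and 1 fell (median 0.07 against 0.00 over all genes tested). Etnppl, which encodes a lyase that breaks down phosphoethanolamine, was at 101, 119, 109 and 172 CPM with saline and 332, 394, 514 and 596 CPM with insulin. All 4 insulin livers were above the saline livers, and the gene rose by 1.87 on the log2 scale (adjusted p = 0.00265). Cyp17a1, a steroid hydroxylase, rose by 0.99, Atp2a2, a calcium pump, by 0.68 and G6pc, glucose-6-phosphatase, by 0.65, each with an adjusted p above 0.05. Of genes outside the 4 largest, Pck1, which encodes the gluconeogenic enzyme PEPCK, also met the rule and fell by 0.45 (adjusted p = 0.165). Without WT insulin replicate 3, 8 of these genes rose and 1 fell.

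Of 31 genes tested for amino acid catabolism, the urea cycle and ammonia handling, 6 rose and 2 fell (median 0.23 against 0.00 over all genes tested), and 5 had an adjusted p under 0.05. Agxt, alanine-glyoxylate aminotransferase, was at 223, 228, 207 and 248 CPM with saline and 498, 639, 871 and 942 CPM with insulin and rose by 1.70 on the log2 scale (adjusted p = 0.00265). Got1, the cytosolic aspartate aminotransferase, rose by 1.59 from 315 ± 136 CPM (SD, n = 4) to 947 ± 147 CPM (SD, n = 4) (adjusted p = 0.0106). The mitochondrial carriers Slc25a15, for ornithine, and Slc25a22, for glutamate, rose by 1.17 and 0.90 (adjusted p = 0.00718 and 0.00334). Without WT insulin replicate 3, 11 rose and 2 fell. Among the relatives and lipid droplet neighbours of Hsd17b13, 3 of 10 rose and 0 fell, led by the droplet protein Plin5 at 1.66 (adjusted p = 0.00197). In either direction, the rule was met by 42.9% of the Wnt targets and regulators, 20% of other pericentral genes, 27.3% of other periportal genes, 25.8% of the amino acid list, 30% of the Hsd17b13 neighbourhood and 12.5% of the ligands, against 17.2% of all genes (17%, 15.6% and 18.3% without WT insulin replicate 1, 2 or 3). Without WT insulin replicate 2, 2 other periportal genes fell and the median of the amino acid list was 0.10. That median was 0.35 without replicate 3. The median of other periportal genes was 0.04 without replicate 2 and 0.14 without replicate 3, and that of other pericentral genes -0.14 without replicate 1. Of 36 markers of other cell types tested here, 2 rose (S100a8 and Acta1) and 4 fell (Kdr, Lrat, Col3a1 and Cela1), and the groups did not overlap for 1 (Lrat), against 12.4% of all genes.

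**Figure D3:**
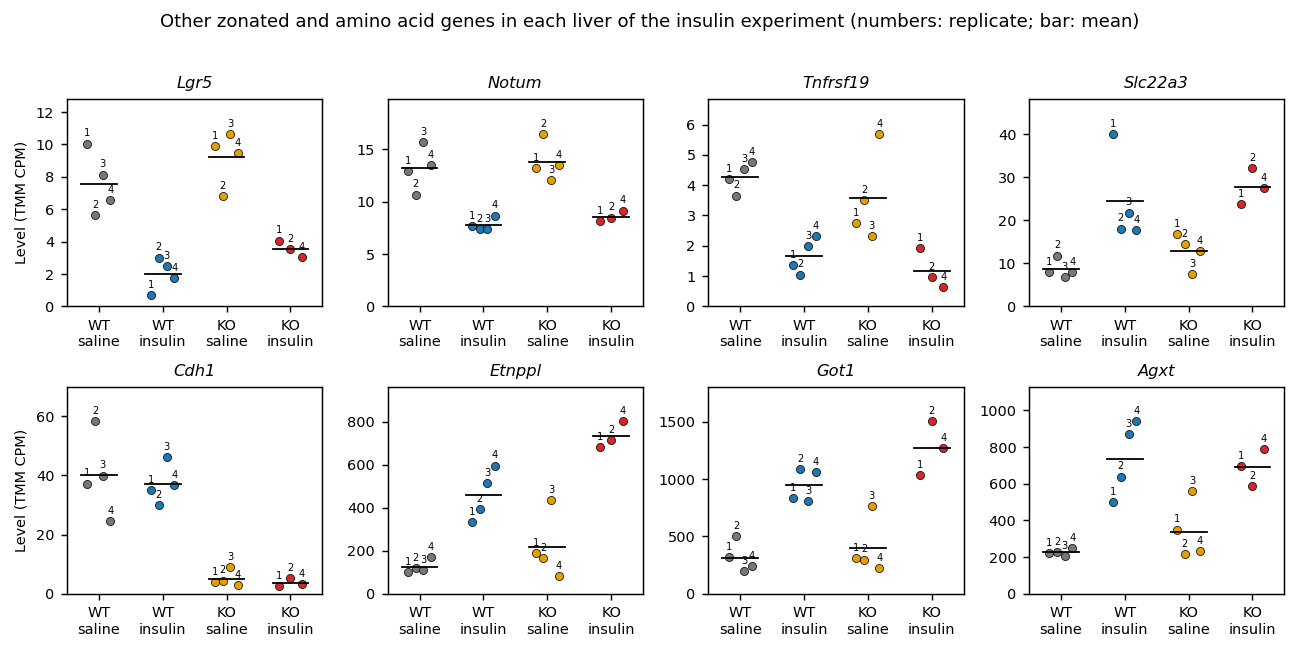
Level (TMM CPM, linear axis from 0) of 8 genes of the pathway lists in the 15 livers of the insulin experiment, with points for livers, numbers for replicates and bars for group means. Lgr5, Notum and Tnfrsf19 are lower and Slc22a3, Etnppl, Got1 and Agxt higher in the WT insulin than in the WT saline livers, and Cdh1 is below 10 CPM in all 7 ERRα-/- livers.

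The same injection was compared in ERRα-/- mice. Of the 9 markers only Slc1a2 met the rule, higher with insulin. That is 1 of 9 in either direction against 17.2% of all 13684 genes, 1 higher against 8.05%, 0 lower against 9.14% and, at an adjusted p under 0.05, 0 against 2.91% by edgeR. By DESeq2, 929 of 19807 genes had an adjusted p under 0.05, 0 of them markers. A count of 1 in 9 is below the share of all genes and is no result about the markers as a group.

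Slc1a2 was at 287, 273, 228 and 236 CPM in the ERRα-/- saline livers and at 331, 352 and 305 CPM in the ERRα-/- insulin livers. The 3 insulin livers were above all 4 saline livers. The gene rose 1.28-fold, a log2 fold change of 0.36 ± 0.12 (SE) with unadjusted p = 0.0137, adjusted p = 0.149. Without ERRα-/- insulin replicate 2 the log2 difference was 0.31 (unadjusted p = 0.0544), and the call was lost.

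Glul was at 1340.1, 1356, 639.5 and 1419 CPM with saline and 1212, 1214 and 1115 CPM with insulin. Saline replicate 3 was far below all other livers, while the insulin livers were below the other 3 saline livers. The log2 difference was -0.01 ± 0.23 (SE) with adjusted p = 0.986, and -0.22 (unadjusted p = 0.0825) without that liver. Sds was at 83.3, 53.5, 185 and 35.4 CPM with saline and 146, 140.2 and 152 CPM with insulin. Saline replicate 3 was above all 3 insulin livers and the other saline livers were below them. The log2 difference was 0.70 ± 0.43 (SE) with all livers (unadjusted p = 0.132, adjusted p = 0.439) and 1.34 (unadjusted p = 0.000249) without saline replicate 3, when it met the rule. Plbd2, which shares exon bases with Sds, rose with insulin in ERRα-/- livers by 0.39 (unadjusted p = 0.00351, adjusted p = 0.0763), and the interaction of Plbd2 was 0.46 (unadjusted p = 0.014, adjusted p = 0.5). Hal at 634, 574, 1104 and 246 CPM and Gls2 at 314, 280.1, 627 and 179 CPM with saline had the same library at the top and replicate 4 at the bottom. In the insulin livers they were at 579.7, 595 and 563 and 324, 334 and 319.5 CPM, with log2 differences of -0.15 ± 0.36 (SE) and -0.11 ± 0.33 (SE). These negative values depend on saline replicate 3. The other saline livers were all below the insulin livers for Gls2, and for Hal they lay above, among and below them. Neither gene met the rule without saline replicate 3. Oat, Axin2, Tbx3 and Hsd17b13 had log2 differences from 0.01 to 0.05, and none met the rule.

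In the lists, 2 of 14 Wnt targets and regulators rose and 3 fell (median -0.14 against -0.02 over all genes tested, and -0.24 without saline replicate 3). Lgr5 was at 9.92, 6.81, 10.7 and 9.49 CPM with saline and 4.06, 3.54 and 3.07 CPM with insulin and fell by 1.38 on the log2 scale (adjusted p = 0.00924). Tnfrsf19 fell by 1.61 (adjusted p = 0.0813) and Notum by 0.69 (adjusted p = 0.0366), while Lrp6, a Wnt co-receptor, rose by 0.64 (adjusted p = 0.0321). Of 20 other pericentral genes 3 rose and 0 fell, led by Slc22a3 at 1.10 (adjusted p = 0.0312). Without ERRα-/- saline replicate 3 these counts were 3 and 2. Of 22 other periportal genes 3 rose and 1 fell, and 8 and 0 did so without saline replicate 3. The leading gene was Etnppl, at 188, 165, 435 and 81.2 CPM with saline and 682, 716 and 804 CPM with insulin (adjusted p = 0.0546). Without saline replicate 4 the numbers lower were 1 other pericentral and 3 other periportal genes.

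Of 31 genes of amino acid and ammonia metabolism 7 rose and 1 fell with insulin in ERRα-/- livers (median 0.19 against -0.02 over all genes tested). Got1 rose by 1.67 from 398 ± 247 CPM (SD, n = 4) to 1270.2 ± 236 CPM (SD, n = 3) (adjusted p = 0.0354), Agxt by 1.02 (adjusted p = 0.0934), Slc25a15 by 0.91 (adjusted p = 0.0312) and Cps1, which starts the urea cycle, by 0.74 (adjusted p = 0.146). Without saline replicate 3, which held the highest Got1 and Agxt of its group, 15 rose and 1 fell, and the median was 0.32 without that liver and 0.09 without replicate 4. In the Hsd17b13 neighbourhood 2 of 10 rose and 2 fell, with Plin5 higher by 1.17 and Plin2, the main coat protein of hepatocyte lipid droplets, lower by 1.11 (adjusted p = 0.00503 and 0.00571). Among the ligands Wnt9b rose by 0.97 (adjusted p = 0.234), a call lost without saline replicate 4, while 1 ligand fell without saline replicate 3. Without saline replicate 4, 2 genes of the amino acid list fell, and without replicate 3, 1 of the Hsd17b13 neighbourhood. Counted in both directions, the rule was met by 35.7% of the Wnt targets and regulators, 15% of other pericentral genes, 18.2% of other periportal genes, 25.8% of the amino acid list, 40% of the Hsd17b13 neighbourhood and 14.3% of the ligands, against 17.2% of all genes (18.5% and 14.6% without ERRα-/- saline replicate 3 or 4). Of 34 markers of other cell types tested here, 1 rose (Hba-a2) and 2 fell (Cela1 and Prss2), and the groups did not overlap for 1 (Epcam), against 17.6% of all genes.

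The effect of genotype was examined first in fasted, saline-injected mice. Of the 9 markers only Oat met the rule. That is 1 of 9 in either direction against 11.3% of all 13481 genes, 1 higher against 5.98%, 0 lower against 5.3% and, at an adjusted p under 0.05, 0 by edgeR against 0.0816%. By DESeq2 Oat had adjusted p = 0.00419, and 217 genes had one under 0.05. The share of markers that met the rule is near that of all genes.

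Oat was at 1239, 1380.3, 1040.1 and 1502 CPM in the WT saline livers and at 2565, 1892, 1751 and 1914 CPM in the ERRα-/- saline livers. All 4 ERRα-/- livers were above all 4 WT livers. Oat rose 1.57-fold in ERRα-/- livers, a log2 fold change of 0.66 ± 0.16 (SE) with unadjusted p = 0.0016, adjusted p = 0.181, and met the rule in each of the 8 fits with 1 liver left out. Glul differed by -0.07 ± 0.21 (SE) and Slc1a2 by 0.05 ± 0.12 (SE), and neither met the rule. The difference of Glul was 0.14 (unadjusted p = 0.206) without ERRα-/- saline replicate 3. For Gls2, Hal and Sds the 4 ERRα-/- livers spread both above and below the WT livers. Sds differed by 0.74 ± 0.41 (SE) with all livers, and by 1.00 (unadjusted p = 0.0156) without ERRα-/- saline replicate 4 and 0.10 (unadjusted p = 0.702) without replicate 3. Gls2 differed by 0.43 ± 0.30 (SE) with all livers and by 0.65 (unadjusted p = 0.0258) without replicate 4. Without replicate 3, the highest at 627 CPM, it did not meet the rule. ERRα-/- replicates 1, 2 and 4 held 314, 280.1 and 179 CPM of Gls2, and the WT saline livers 249, 307, 238 and 245 CPM. Tbx3 differed by -0.28 ± 0.21 (SE), and by -0.47 (unadjusted p = 0.0333) without ERRα-/- saline replicate 2, when it met the rule.

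Of 22 other periportal genes 6 rose and 3 fell in ERRα-/- livers (median 0.25 against 0.00 over all genes tested). Without ERRα-/- saline replicate 3 the median was 0.08, with 4 higher and 4 lower, and without replicate 4 it was 0.33, with 8 and 3. Cdh1, which encodes E-cadherin, the adhesion protein of periportal hepatocytes and bile ducts, was at 37.2, 58.4, 39.9 and 24.5 CPM in WT and 3.83, 4.39, 9.03 and 2.93 CPM in ERRα-/- livers. It fell by 2.98 on the log2 scale (adjusted p = 0.00997). The summed cholangiocyte markers were 23.4, 23.1, 22.2 and 25.6 CPM in WT and 20.7, 22.4, 24.2 and 21.1 CPM in ERRα-/- livers. The part of bile duct cells in the fall of Cdh1 was not tested. Cyp17a1 rose by 2.57 (adjusted p = 0.054) and Sult5a1, a sulfotransferase, by 1.90 (adjusted p = 0.131), whereas Cyp2f2, a P450 enzyme of the periportal zone, fell by 0.64 (adjusted p = 0.239). The amino acid list had 6 of 31 higher and 0 lower, led by the serine dehydratase relative Sdsl at 0.94 (adjusted p = 0.249). When ERRα-/- saline replicate 3 was left out the number higher was 3 and without replicate 4 it was 11. Of the Wnt targets and regulators 0 rose and 2 fell of 14, namely Fzd4, a Frizzled receptor, by 0.84 and Apc, a scaffold of β-catenin turnover, by 0.31 (adjusted p = 0.176 and 0.319). Other pericentral genes had 1 higher and 0 lower of 20 (Slc22a3, 0.58, adjusted p = 0.362), the Hsd17b13 neighbourhood 2 and 0 of 10 (Plin2, 0.59, and Plin5, 0.37) and the ligands 0 and 0 of 8. Without ERRα-/- saline replicate 4 the call of Slc22a3 was lost and 1 ligand was lower, and without replicate 3, 1 Wnt target or regulator and 1 gene of the Hsd17b13 neighbourhood were higher. Higher or lower together, the rule was met by 14.3% of the Wnt targets and regulators, 5% of other pericentral genes, 40.9% of other periportal genes, 19.4% of the amino acid list, 20% of the Hsd17b13 neighbourhood and 0% of the ligands, against 11.3% of all genes (10.1% and 9.94% without ERRα-/- saline replicate 3 or 4). Of 34 markers of other cell types tested here, 0 rose and 6 fell (Kdr, Adgre1, Csf1r, Vsig4, Col1a1 and Alas2), whereas 5.98% of all genes rose and 5.3% fell. The groups did not overlap for 1 (Alas2), against 7.1% of all genes. The part of these cells in the differences of the zonation markers was not tested.

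The genotypes were compared after insulin as well. Glul, Oat, Slc1a2 and Hal were higher in ERRα-/- than in WT livers, and the other 5 did not meet the rule. That is 4 of 9 in either direction against 9.99% of all 13665 genes, 4 higher against 4.57%, 0 lower against 5.42% and, at an adjusted p under 0.05, 0 by edgeR against 0.0585%. Unadjusted, 1371 genes passed 0.05, and DESeq2 gave 228 genes with an adjusted p under 0.05, among them Slc1a2 (0.00265) and Oat (0.00385). The median log2 fold change was 0.35 over the 5 pericentral and 0.23 over the 4 periportal markers, against -0.02 over all genes.

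Slc1a2 was at 223, 178, 233 and 198 CPM in the WT insulin livers and 331, 352 and 305 CPM in the ERRα-/- insulin livers, with no overlap. It was 1.57-fold higher in ERRα-/- livers, a log2 fold change of 0.65 ± 0.13 (SE) with unadjusted p = 0.000599, adjusted p = 0.166. Oat was at 1505, 1381, 1288 and 1334 CPM in WT and 2074, 2361 and 1898 CPM in ERRα-/- livers, again with no overlap. It was 1.52-fold higher, with 0.61 ± 0.13 (SE) and unadjusted p = 0.000744, adjusted p = 0.166. Both met the rule in each of the 7 fits with 1 liver left out.

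For Glul, whose levels in both groups are given above, all 3 ERRα-/- livers were above the 4 WT livers and the log2 fold change was 0.35 ± 0.14 (SE) with unadjusted p = 0.0286, adjusted p = 0.42. This call was lost in 4 of the 7 fits with 1 liver left out: without WT insulin replicate 1 (0.33, unadjusted p = 0.0569) or 4 (0.28, unadjusted p = 0.0819) and without ERRα-/- insulin replicate 1 (0.33, unadjusted p = 0.0832) or 2 (0.33, unadjusted p = 0.0792). Hal, the only periportal marker that met the rule, was higher in all 3 ERRα-/- livers than in the 4 WT livers, with 0.57 ± 0.17 (SE) and unadjusted p = 0.00737, adjusted p = 0.28. With all 4 groups in 1 fit neither Glul (log2 0.36, unadjusted p = 0.0905) nor Hal (0.58, unadjusted p = 0.106) met the rule. Tbx3 differed by 0.25 ± 0.45 (SE), and by 0.87 (unadjusted p = 0.021) without WT insulin replicate 3. Sds differed by 0.30 ± 0.19 (SE), and by 0.44 (unadjusted p = 0.0281) without WT insulin replicate 2. Gls2, Hsd17b13 and Axin2 differed by 0.16 ± 0.13 (SE), 0.10 ± 0.15 (SE) and -0.24 ± 0.35 (SE). The negative value of Axin2 rests on WT insulin replicate 3 at 20.6 CPM. WT insulin replicates 1, 2 and 4 held 9.03, 7.21 and 8.61 CPM and the ERRα-/- insulin livers 8.43, 8.04 and 12.5 CPM. Axin2 did not meet the rule without that liver either.

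Among other periportal genes 5 of 22 rose and 1 fell. Cdh1 fell by 3.35, from 37.0 ± 6.74 CPM (SD, n = 4) to 3.65 ± 1.37 CPM (SD, n = 3) (adjusted p = 0.000791). Sult5a1 rose by 2.14 (adjusted p = 0.0534) and Cyp17a1 by 1.64 (adjusted p = 0.193). Cps1, at 7724, 7174, 5893 and 5564 CPM in WT and 12790.3, 14288 and 11281 CPM in ERRα-/- livers, rose by 0.95 (adjusted p = 0.0739). The amino acid list had 5 of 31 higher and 0 lower, among them Cps1 and Amdhd1, which acts after Hal in histidine breakdown, the latter at 0.45 (adjusted p = 0.34). Other pericentral genes had 3 higher and 0 lower of 20 (Ahr, 0.65; Por, the P450 reductase, 0.58; Aldh1a1, a retinaldehyde dehydrogenase, 0.56). The Wnt targets and regulators had 2 and 0 of 14, Lrp6 at 0.57 and Ctnnb1, which encodes β-catenin, at 0.30 (adjusted p = 0.315 and 0.406). In the Hsd17b13 neighbourhood Plin2 alone met the rule, lower by 0.51 (adjusted p = 0.469), but not without WT insulin replicate 3, and none of the 8 ligands did by edgeR, against 1 lower without that liver. Taken in either direction, the rule was met by 14.3% of the Wnt targets and regulators, 15% of other pericentral genes, 27.3% of other periportal genes, 16.1% of the amino acid list, 10% of the Hsd17b13 neighbourhood and 0% of the ligands, against 9.99% of all genes (11.2%, 13.2% and 10.8% without WT insulin replicate 1, 2 or 3). The share of all genes was lower, at 7.27%, 5.78% and 7.08%, without ERRα-/- insulin replicate 1, 2 or 4. Of 37 markers of other cell types tested here, 1 rose (Cdh5) and 3 fell (Cela1, Prss2 and Myh4), and the groups did not overlap for 3 (Cdh5, Ptprc and Cela1), against 12.4% of all genes. The hepatocyte markers summed to 87494 to 92526 CPM in ERRα-/- and 74075 to 82110.5 CPM in WT livers. Among them Alb (0.23, adjusted p = 0.498) and Serpina1a (0.27, adjusted p = 0.630) were higher with no overlap but did not meet the rule, while Apoa1, Ttr and Hnf4a overlapped. Their part in the differences of the zonation markers was not tested.

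Several of these counts depended on the WT insulin livers 1 and 2, and the share of all genes moved with them. Without replicate 2, 5.99% of all genes were higher instead of 4.57%, and 14 genes of the amino acid list were higher in ERRα-/- livers instead of 5, and 9 other periportal genes instead of 5. The Wnt targets and regulators then had 4 higher and 1 lower, and the Hsd17b13 neighbourhood 1 and 2. Other pericentral genes had 5 higher without either replicate 1 or replicate 2, and Plin2 did not meet the rule without replicate 1.

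Whether insulin acted differently in the 2 genotypes was tested as an interaction, the effect in ERRα-/- minus the effect in WT livers. Only Slc1a2 of the 9 markers met the rule. That is 1 of 9 in either direction against 8.79% of all 14670 genes, 1 higher against 4.04%, 0 lower against 4.75% and, at an adjusted p under 0.05, 0 against 0.0% by edgeR. Unadjusted, p was under 0.05 for 1289 genes, and DESeq2 gave 20 with an adjusted p under 0.05, 0 of them markers. The count of 1 in 9 is near the share of all genes.

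For Slc1a2 the log2 difference with insulin was -0.24 in WT and 0.36 in ERRα-/- livers, and the interaction was 0.61 ± 0.18 (SE) (95% interval 0.24 to 0.98; unadjusted p = 0.00298, adjusted p = 0.422). It met the rule in each of the 15 fits with 1 liver left out. For Glul, which fell with insulin in WT livers, the interaction was 0.43 ± 0.27 (SE) with adjusted p = 0.669, so its effects in the 2 genotypes were not shown to differ. The same holds for Sds (-0.42 ± 0.52 (SE), adjusted p = 0.844) and for Hal (0.45 ± 0.46 (SE), adjusted p = 0.802). With ERRα-/- saline replicate 3 left out, the effect of insulin on Sds was 1.34 in ERRα-/- against 1.13 in WT livers, the opposite order. The effect on Glul in ERRα-/- livers then lay nearer to that in WT livers, and neither gene met the rule for the interaction. Without ERRα-/- saline replicate 3 Hal had an interaction of 0.85 (unadjusted p = 0.0489), and without WT insulin replicate 3 Tbx3 had one of 1.15 (unadjusted p = 0.011), both of which met the rule. In the lists, 2 of 14 Wnt targets and regulators were higher and 0 lower (Tcf7l2, 0.75, and Lrp6, 0.62), other pericentral genes 2 and 0 of 20 (Cyp1a2, 0.72, and Ahr, 0.57, neither of them without WT insulin replicate 3 or without ERRα-/- saline replicate 3 or 4), other periportal genes 1 and 0 of 22 (Pck1, 0.69), the Hsd17b13 neighbourhood 0 and 1 of 11 (Plin2, -1.09), and no gene of the amino acid list or of the ligands met the rule by edgeR. Without ERRα-/- saline replicate 3 the Wnt targets and regulators were 1 higher and 1 lower, other periportal genes 2 and 0 and the amino acid list 1 and 0. Without replicate 4, 1 gene of the amino acid list and 2 of the Hsd17b13 neighbourhood were lower, and without WT insulin replicate 3, 1 other periportal gene. Without WT insulin replicate 1 the counts were 1 Wnt target or regulator higher, 2 genes of the Hsd17b13 neighbourhood lower and 1 of the amino acid list lower, and without replicate 2, 1 of the amino acid list was higher. Other pericentral genes had 1 higher without either of these livers. As shares in either direction, the rule was met by 14.3% of the Wnt targets and regulators, 10% of other pericentral genes, 4.55% of other periportal genes, 0% of the amino acid list, 9.09% of the Hsd17b13 neighbourhood and 0% of the ligands, against 8.79% of all genes (9.48%, 8.35% and 10.8% without WT insulin replicate 1, 2 or 3 and 8.5% and 6.7% without ERRα-/- saline replicate 3 or 4). The share of all genes was 5.82% without ERRα-/- insulin replicate 2. Of 39 markers of other cell types, 3 met the rule for the interaction, all higher: the stellate cell gene Lrat (0.82, unadjusted p = 0.0118, adjusted p = 0.495), the macrophage gene Csf1r (0.74, unadjusted p = 0.0458, adjusted p = 0.557) and the erythroid gene Alas2 (0.50, unadjusted p = 0.0417, adjusted p = 0.556). Their part in the interaction of Slc1a2 was not tested.

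The last comparison set ERRα3SA livers against those of WT littermates. Sds alone of the 10 markers met the rule, lower in ERRα3SA livers. That is 1 of 10 in either direction against 4.88% of all 13339 genes, 0 higher against 2.5%, 1 lower against 2.38% and, at an adjusted p under 0.05, 0 against 0.0% by edgeR. For 996 genes p was under 0.05 before adjustment, and DESeq2 gave 33 with an adjusted p under 0.05, 0 of them markers. The median log2 fold change was -0.04 over the 6 pericentral and -0.26 over the 4 periportal markers, against 0.00 over all genes.

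Sds was at 89.6, 139.6, 120 and 115 CPM in the WT and 86.9, 75.6, 96.6 and 37.8 CPM in the ERRα3SA livers. The groups overlapped through WT replicate 1 and ERRα3SA replicate 3, and ERRα3SA replicate 4 was far below all others. Sds fell by 0.64 on the log2 scale (unadjusted p = 0.0289, adjusted p = 0.639) and by 0.42 without ERRα3SA replicate 4 (unadjusted p = 0.0111). The call was lost without WT replicate 2 (-0.54, unadjusted p = 0.0797), 3 (-0.63, unadjusted p = 0.0565) or 4 (-0.65, unadjusted p = 0.0511) and without ERRα3SA replicate 2 (-0.65, unadjusted p = 0.0538).

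Gls2 was at 519, 451, 546 and 481 CPM in WT and 459.7, 390.4, 466 and 278 CPM in ERRα3SA livers, where replicates 2 and 4 were below every WT liver. Its log2 difference was -0.32 ± 0.16 (SE) with unadjusted p = 0.0636, adjusted p = 0.695, which did not meet the rule. It did so without ERRα3SA replicate 1 (-0.40, unadjusted p = 0.0415) or 3 (-0.41, unadjusted p = 0.0334), with DESeq2 (-0.32, unadjusted p = 0.0434) and with no filter on low counts (-0.33, unadjusted p = 0.0398). It did not do so without ERRα3SA replicate 4, where Sds was the 1 marker that met the rule. The other ERRα3SA livers, at 459.7, 390.4 and 466 CPM of Gls2, lay closer to the WT livers than replicate 4 at 278 CPM. A fit with the replicate number as a block gave 3 markers that met the rule instead of 1: Sds at -0.70 (unadjusted p = 0.0207), Gls2 at -0.35 (unadjusted p = 0.0263) and Tbx3 at 0.29 (unadjusted p = 0.0462). Glul was at 1113, 1051, 1183 and 1090.3 CPM in WT and 906, 1060.3, 1061 and 1203 CPM in ERRα3SA livers, a log2 difference of -0.07 ± 0.11 (SE) with a 95% interval of -0.31 to 0.17. Oat, Slc1a2 and Hal differed by -0.16 ± 0.22 (SE), -0.13 ± 0.10 (SE) and -0.20 ± 0.15 (SE). The values of Oat and Hal lean on ERRα3SA replicate 4, at 612 and 426 CPM. Oat was at 948, 999.5 and 1360 CPM in the other ERRα3SA livers and 1241, 985, 1252 and 911 CPM in WT. Hal was at 706, 611 and 600 CPM and 649, 623, 775 and 651 CPM. Rhbg, Axin2, Tbx3 and Hsd17b13 differed by 0.08 ± 0.23 (SE), -0.02 ± 0.17 (SE), 0.28 ± 0.19 (SE) and 0.03 ± 0.10 (SE), and none met the rule.

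**Figure D4:**
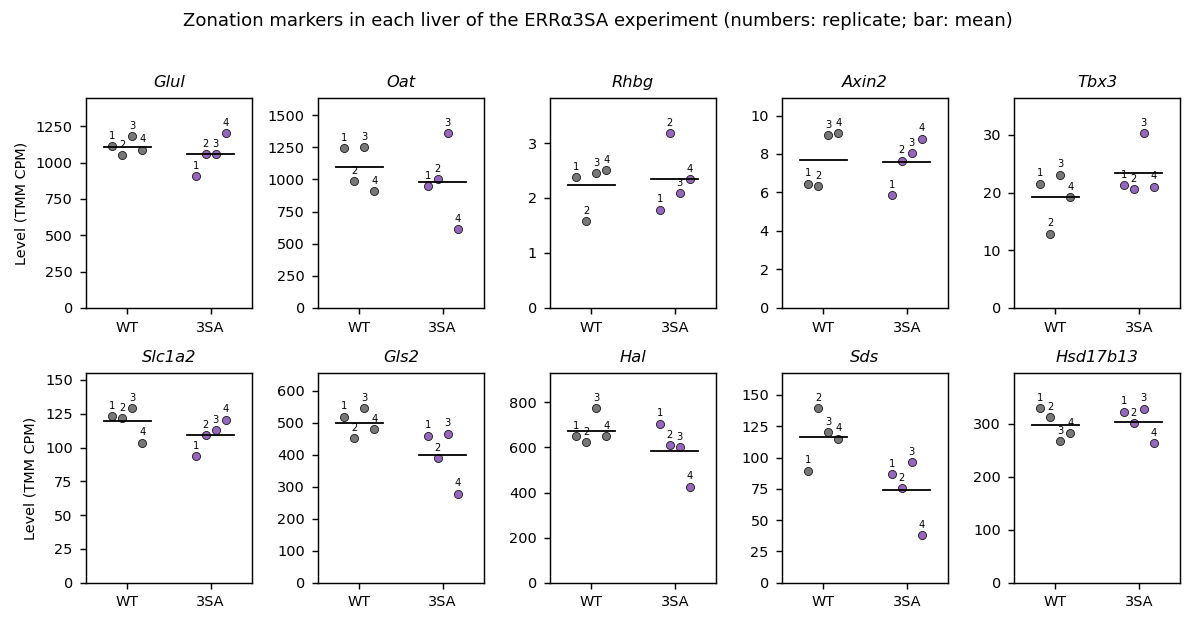
Level of each marker (TMM CPM, linear axis from 0) in the 8 livers of the ERRα3SA experiment, with points for livers, numbers for replicates and bars for group means. ERRα3SA replicate 4 has the lowest Oat, Gls2, Hal, Sds and Hsd17b13 of the 8 livers and the highest Glul.

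Got1 was at 350.1, 310.3, 352 and 362 CPM in WT and 187, 244, 303 and 127 CPM in ERRα3SA livers and fell by 0.68 (adjusted p = 0.597), the only one of 31 genes of amino acid metabolism. Cyp1a2, a pericentral P450 enzyme, fell by 0.40 (adjusted p = 0.592), the only one of 20 other pericentral genes. None of 14 Wnt targets and regulators, 22 other periportal genes, 11 relatives and neighbours of Hsd17b13 or 7 ligands met the rule by edgeR. These list counts come from the fit without the replicate number as a block. With that block 4.92% of all genes met the rule, against 4.88% without it. Without ERRα3SA replicate 4, 1 Wnt gene was higher and 1 lower, 2 genes of the Hsd17b13 neighbourhood were higher and 2 of the amino acid list were lower. By share in either direction, the rule was met by 0% of the Wnt targets and regulators, 5% of other pericentral genes, 0% of other periportal genes, 3.23% of the amino acid list, 0% of the Hsd17b13 neighbourhood and 0% of the ligands, against 4.88% of all genes (6.6% without ERRα3SA replicate 4).

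Markers of other cell types moved between these genotypes as well. Of 33 markers of other cell types tested here, 4 rose (Lyve1, Vsig4, Lrat and Ptprc) and 4 fell (Krt19, Krt7, Epcam and Cd79a), whereas 4.88% of all genes met the rule in either direction. The groups did not overlap for 5 (Lyve1, Csf1r, Krt19, Epcam and Cd79a), against 4.96% of all genes. The cholangiocyte gene Krt19 was at 2.14, 1.88, 2.65 and 1.87 CPM in WT and 1.07, 0.672, 1.30 and 0.8289 CPM in ERRα3SA livers, and Epcam at 1.45, 1.84, 1.75 and 1.40 and 0.895, 0.582, 1.21 and 0.691 CPM. Cd79a, a gene of B cells, was at 1.45, 1.05, 1.22 and 0.976 CPM in WT and 0.403, 0.627, 0.698 and 0.368 CPM in ERRα3SA livers. All 4 ERRα3SA livers were below the 4 WT livers for these 3 genes, with log2 fold changes of -1.14 (adjusted p = 0.493), -0.93 (adjusted p = 0.528) and -1.17 (adjusted p = 0.509). The 3 genes were at no more than 2.65 CPM in any liver, so these differences rest on few reads. Of the other cholangiocyte genes Krt7 fell by 1.11 (adjusted p = 0.563). Sox9 went the other way by 0.38 ± 0.22 (SE) and Spp1 differed by -0.10 ± 0.18 (SE), and neither met the rule. Of the other lymphocyte genes Ptprc rose by 0.29 (adjusted p = 0.627). The ERRα3SA livers were all above the WT livers for the endothelial gene Lyve1, at 7.46, 8.51, 6.69 and 8.11 CPM in WT and 10.8, 10.4, 10.6 and 9.76 CPM in ERRα3SA livers (log2 0.44, adjusted p = 0.493), and for the macrophage gene Csf1r, whose difference of 0.18 (adjusted p = 0.629) did not meet the rule. Over the 5 cholangiocyte markers the sums were 47.5, 44.1, 40.0 and 46.0 CPM in WT and 40.8, 30.1, 38.4 and 57.2 CPM in ERRα3SA livers, and over the 6 lymphocyte and neutrophil markers 11.3, 10.8, 12.5 and 12.2 and 11.6, 12.6, 11.7 and 16.5 CPM. The part of these cells in the differences of the zonation markers was not tested.

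Group differences aside, the markers also varied from mouse to mouse. For each pair of the 9 markers the deviations of log2 CPM from the group means were correlated over the 15 livers of the insulin experiment, with p from 100000 permutations of mice within groups and Benjamini-Hochberg adjustment over the 36 pairs. At an adjusted p under 0.05, 2 pairs passed by Pearson's r and 1 by Spearman's rho. Gls2 and Hal had r = 0.93 (permutation p = 0.00091, adjusted p = 0.0328) and rho = 0.87 (permutation p = 0.0003, adjusted p = 0.0108). Leaving out the 2 livers farthest from the median of Gls2, which were ERRα-/- saline replicates 3 and 4, gave r = 0.90, and over the 8 livers of the ERRα3SA experiment r was 0.91 and rho 0.76. Livers with more Gls2 than their group thus also held more Hal, and in the ERRα3SA experiment ERRα3SA replicate 4 was the lowest in both genes.

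Gls2 and Sds had r = 0.95 (permutation p = 0.00235, adjusted p = 0.0423) and rho = 0.79 (permutation p = 0.00948, adjusted p = 0.128), with r = 0.78 without the same 2 livers and 0.78 over the 8 livers. Hal and Sds had r = 0.87 and rho = 0.61 (permutation p = 0.00976 and 0.051, adjusted p = 0.117 and 0.262). Without ERRα-/- saline replicate 3 alone, r was 0.96 for Gls2 and Hal and 0.86 for Gls2 and Sds, and no pair had an adjusted p under 0.05 over the 14 livers left (adjusted p = 0.081 and 0.179). Hsd17b13 had r = 0.38 to Gls2, 0.19 to Hal and 0.49 to Sds, none of which passed. In the same order r was -0.14, -0.20 and 0.15 without ERRα-/- saline replicate 3, -0.38, -0.43 and 0.11 without replicates 3 and 4, and 0.61, 0.39 and 0.55 over the 8 livers.

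The r of Glul was -0.83 with Gls2 and -0.82 with Sds (permutation p = 0.0518 and 0.0361, adjusted p = 0.266 and 0.217), rho was -0.41 and -0.46 (permutation p = 0.198 and 0.156, adjusted p = 0.537 and 0.469), and neither passed. Pearson's r was -0.22 and -0.37 without ERRα-/- saline replicate 3 alone, -0.15 and -0.35 without replicates 3 and 4, and -0.58 and -0.69 over the 8 livers of the ERRα3SA experiment, where rho was -0.10 and -0.40. Axin2 and Tbx3 had r = 0.74 and rho = 0.60 (permutation p = 0.0236 and 0.0429, adjusted p = 0.213 and 0.262), and r was 0.27 without WT insulin replicate 3 and ERRα-/- saline replicate 2.

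**Figure D5:**
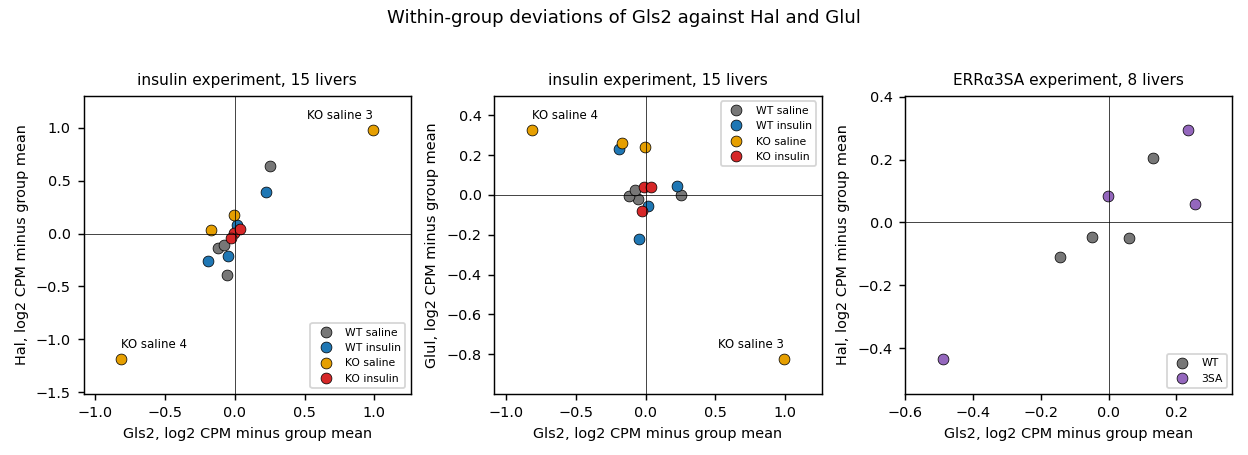
Deviation of log2 CPM from the group mean, Gls2 on the horizontal axis and Hal or Glul on the vertical axis, for the 15 livers of the insulin experiment and, on the right, the 8 livers of the ERRα3SA experiment, with each point a liver coloured by group (KO, ERRα-/-; 3SA, ERRα3SA). Gls2 and Hal lie along a line in both experiments, and ERRα-/- saline replicate 3 is alone in the lower right of the middle panel.

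The genes nearest to 2 of the markers were listed by Pearson's r of the same deviations among 8501 genes with a mean of at least 5 CPM, as a description with no p, since they were chosen by r. For Gls2 they included Sds (0.95), Dbt (0.93), Hal (0.93) and Amdhd1 (0.92). Dbt encodes a subunit of the branched-chain ketoacid dehydrogenase. Over the 8 livers of the ERRα3SA experiment r was 0.78, 0.73, 0.91 and 0.96 in the same order, and without ERRα-/- saline replicate 3 it ran from 0.86 to 0.96. For Glul the nearest were Mrps5 (0.94), Pdzrn3 (0.91), Cenpb (0.90), Sptlc2 (0.87) and Slc16a11 (0.87). These values were, without ERRα-/- saline replicate 3, 0.81, 0.52, 0.24, 0.41 and 0.00, and over the 8 livers of the other experiment -0.16, 0.53, -0.57, 0.32 and -0.12.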

How the data were processed

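Counts per gene and library were made by the authors and deposited as whole numbers: per the study's methods, NEBNext Ultra libraries were sequenced as paired ends and aligned with STAR to mm10 (GRCm38). No normalization had been applied. The 8 muscle libraries were not used here. The markers and gene lists were chosen with earlier results of these data known.

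Each comparison was fitted on all genes of its own groups with edgeR 4.0.16 in R 4.3.3 (filterByExpr, TMM, glmQLFit, glmQLFTest), and the interaction on all 4 groups of the insulin experiment. Alternatives were DESeq2 1.42.0, its size factors, no filter on low counts, the replicate number as a block, the 4 groups in 1 fit, leaving out each liver, and the adjusted p as the rule; list counts without 6 livers were added after seeing the data. Log2 CPM used a prior count of 2. The code was tested on simulated data. Named genes were Esrra, all markers, up to 4 genes per list and comparison that met the rule, by size of the log2 fold change, and the 5 genes nearest to Glul and to Gls2, of which 1 is not reported here; Wnt2, Cyp2e1, Pck1 in WT livers, Plbd2 and the cell type markers named singly were chosen after their values were seen. All pairs of replicates differed by more than sampling noise (smallest chi-square per degree of freedom 13.5). As a check on pairing, deviations from the group means over genes of at least 5 CPM were correlated between same-numbered libraries. In the ERRα3SA experiment r was 0.68, 0.11, 0.15 and 0.54 for numbers 1 to 4, and WT replicate 2 correlated better with number 3 than with its own. Over both experiments r was above 0.1 for 11 of 18 same-numbered comparisons. The labels give no pairing, and these values do not establish one. Precision is set by the number of mice per group and, for low genes, by depth.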

Additional observations from a re-analysis of the deposited data

Results flagged for a closer look

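In each group of 4 livers, the log2 CPM of every marker and of Esrra was examined for 1 liver whose gap to the nearest other was a large share of the whole range. Of 52 groups 5 passed the 95% limit, and chance alone gives about 1 in 20. Glul in ERRα-/- saline replicate 3 was the lowest, with a gap of 0.928 of the range. Sds in WT saline replicate 2 was the highest (0.874), as was Tbx3 in ERRα3SA replicate 3 (0.919) and Esrra in WT insulin replicate 2 (0.840), and Rhbg in WT replicate 2 of the ERRα3SA experiment was the lowest (0.893). Separately, Slc1a2 met the rule in the test of whether the effect of insulin differed between the genotypes, with an interaction of 0.61 on the log2 scale (adjusted p = 0.422 by edgeR's quasi-likelihood test). That is 1 of 9 markers, near the 8.79% of all genes, and Tbx3 (1.15) and Hal (0.85) each met it with 1 liver left out.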

How the results depend on the processing

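Leaving out 1 liver at a time, the number of markers that met the rule ran from 2 to 3 for insulin in WT livers (3 with all livers), 0 to 2 for insulin in ERRα-/- livers (1), 1 to 3 for genotype with saline (1), 3 to 5 for genotype with insulin (4), 1 to 2 for the interaction (1) and 0 to 2 for ERRα3SA (1). With an adjusted p under 0.05 as the rule the counts were 1, 0, 0, 0, 0 and 0 in the same order. The number of all genes that passed it by edgeR also moved. For insulin in WT livers it was 425 with all livers and 105 without WT saline replicate 4. For insulin in ERRα-/- livers it was 398, and 42 without ERRα-/- insulin replicate 2. With the 4 groups in 1 fit, 2 markers differed between genotypes after insulin. In the ERRα3SA comparison DESeq2 and the fit with no filter on low counts each gave 2 (Sds and Gls2). The replicate block gave 3 there and 2 for insulin in ERRα-/- livers (Slc1a2 and Sds). The ERRα-/- insulin group has no replicate 3, so the block also takes saline replicate 3 out of that comparison, and leaving out that liver alone gave the same 2 markers (Sds 1.34, unadjusted p = 0.000249; with the block 1.43, unadjusted p = 0.000132). For genotype with insulin the block gave 5 against 4, with Tbx3 added (0.82, unadjusted p = 0.024), and it too takes out WT insulin replicate 3. The block changed no other call. In the insulin experiment the deviations of same-numbered livers had r of -0.03, 0.12, 0.61 and 0.51 for insulin in WT (numbers 1 to 4), 0.19, -0.03 and 0.08 for insulin in ERRα-/- (1, 2 and 4), 0.28, -0.08, 0.48 and 0.33 for genotype with saline (1 to 4) and -0.19, 0.06 and 0.01 for genotype with insulin (1, 2 and 4), and not every liver went best with its own number. Of the member correlations, 2 passed with a prior count of 0.5 and 0 without ERRα-/- saline replicate 3, an alternative chosen after seeing the data. The cause of these changes was not tested. Of 741 refits of single markers under the same rule, 709 kept their side of it, 15 lost it, 17 gained it and 0 met it with the opposite sign. Among the markers Rhbg and Axin2 rest on the fewest counts, and the ligands also rest on few. Depth as a limit was not compared between genes.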
